A study of Mus musculus with 4 samples.

Results

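Bile acid synthesis and transport in the liver was followed through 9 genes, the enzymes Cyp7a1, Cyp8b1, Cyp27a1, Cyp7b1, Slc27a5 and Baat and the transporters Abcb11, Abcb4 and Slc10a1. They were taken by name, by a rule that uses no measured value although earlier results of these data were known, and each was represented by its RefSeq transcript with the highest mean value. All 9 were found, among 21061 genes with a RefSeq symbol. The RNA was polyA RNA from livers of C57/BL6 mice with the Clock-delta-19 mutation that also carried Scg2:tTA, in which the Scg2 promoter drives the tTA activator, and tetO::Clock-HA, a tagged Clock under tetO control. After 12 h of light and 12 h of dark a day the animals were moved to constant darkness, and all received doxycycline at 30 ug/ml in drinking water, begun 3 days before darkness, an agent that shuts off a tTA-driven transgene. Livers were taken at 4 circadian times, CT22, CT28, CT34 and CT40, and each time is represented by 1 library in which RNA of 3 animals was pooled. Every time shares the mutation, both transgenes and doxycycline, no library with normal Clock was analysed here, and the labels give neither the sex nor the age of the animals.

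Hepatocytes turn cholesterol into bile acids by a classic route that opens with CYP7A1 and an alternative route that opens with CYP27A1 and continues through CYP7B1. CYP8B1 adds the hydroxyl group that makes cholic acid, SLC27A5 and BAAT join bile acids to taurine or glycine, ABCB11 pumps them into bile, ABCB4 moves phospholipid into bile, and SLC10A1 takes bile acids back up from the blood. Bile acids limit their own synthesis through the nuclear receptor FXR and its target SHP, and Cyp7a1 is known in rodents as a strongly daily gene under both clock factors and feeding.

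With 1 library per time there is no replicate check, and no p-value is given. Values are normalised reads, that is, reads recovered from the deposited values and scaled between libraries by TMM. Intervals are exact 95% intervals for counting error only and leave out differences between animals and between libraries. The libraries held 16761276 to 19284170 gene reads. In the Clock transcript 151 junction reads skipped exon 19, the exon lost in the labelled allele, and 1 read joined it to each neighbour. The CT22 library stood apart. It had 23.7 intron reads per 100 gene reads against 16.5 to 19.0 in the others, the lowest coverage of the 5' part of transcripts relative to the 3' part (median log2 0.13, against 0.37 to 0.68), and 32.9% of its variance about the gene means in a trend with GC content and length, against 1.02 to 16.7%. Markers of cell types were given as summed normalised reads from CT22 to CT40. Those of 9 hepatocyte markers were 2663910, 2875510, 2971490 and 2460400, and those of 8 cholangiocyte markers 1324, 2147, 1924 and 1864. Those of 7 endothelial markers were 2807, 2953, 4806 and 3562, those of 5 Kupffer cell markers 2376, 2400, 3106 and 2341, and those of 6 stellate cell markers 4556, 4070, 4898 and 3715. Alb made up most of the hepatocyte sum, at 1658220, 1982680, 2018440 and 1558570. Scaling by hepatocyte markers, used below, follows that sum and so mostly Alb. Of the 9 hepatocyte markers 6 were lower at CT22 than at CT34 and 3 were higher, among them Apoa1 at 385233 and 274232. Dcn made up most of the stellate sum (3554 at CT22) and was the only one of the 5 stellate markers with enough reads that was higher at CT22 than at CT34, while Reln had 443 at CT22 and 1457 at CT34. All 6 endothelial markers with enough reads were lower at CT22 than at CT34, as were 4 of 5 Kupffer cell markers. The endothelial marker Lyve1, with too few reads for that count, went the other way, at 93.0 and 37.6 normalised reads. None of these markers was at 0 in all libraries, and the cholangiocyte markers Krt19 and Cftr had 23 to 73 and 1 to 5 reads. Their part in the results was not tested, and in pooled tissue fewer cells of a type and less RNA per cell cannot be told apart. Reads of Xist and of Y-linked genes were present in every library, at 6197 to 9037 for Xist and 104 to 323 for Ddx3y.

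Promoters are shown for Cyp8b1, by TMM the only member lowest at CT28, and for Cyp27a1, Abcb11 and Slc10a1. Among the members with a promoter entry, Cyp27a1, Abcb11 and Slc10a1 followed one another most closely over the 4 times. The sequences are the 250 bases before the start of transcription, from RefSeq on GRCm38.p6, 5′ to 3′ on the gene's strand. The table matched 5 of the 9 members. Capitals mark matches to any of the motifs searched.
Cyp8b1 (chr9:121916306-121916555, minus strand): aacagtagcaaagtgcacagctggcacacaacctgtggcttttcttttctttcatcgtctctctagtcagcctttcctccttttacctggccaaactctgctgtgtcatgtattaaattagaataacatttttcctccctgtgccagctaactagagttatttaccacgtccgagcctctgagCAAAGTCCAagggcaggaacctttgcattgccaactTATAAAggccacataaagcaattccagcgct
Cyp27a1 (chr1:74713285-74713534, plus strand): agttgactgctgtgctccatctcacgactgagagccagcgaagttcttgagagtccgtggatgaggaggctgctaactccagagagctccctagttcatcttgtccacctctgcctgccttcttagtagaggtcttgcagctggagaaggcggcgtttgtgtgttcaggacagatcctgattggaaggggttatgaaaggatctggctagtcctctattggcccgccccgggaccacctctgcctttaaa
Abcb11 (chr2:69342617-69342866, minus strand): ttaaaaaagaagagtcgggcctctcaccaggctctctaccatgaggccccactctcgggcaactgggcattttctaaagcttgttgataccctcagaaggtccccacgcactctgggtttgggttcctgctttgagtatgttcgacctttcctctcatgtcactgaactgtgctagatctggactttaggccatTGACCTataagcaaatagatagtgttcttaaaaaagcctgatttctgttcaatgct
Slc10a1 (chr12:80968706-80968955, minus strand): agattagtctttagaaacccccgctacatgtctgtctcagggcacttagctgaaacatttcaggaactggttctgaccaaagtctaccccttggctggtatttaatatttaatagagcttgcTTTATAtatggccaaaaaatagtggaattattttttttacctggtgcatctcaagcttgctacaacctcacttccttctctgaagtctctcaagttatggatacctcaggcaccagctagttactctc

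The motifs were searched on both strands in these 250 bases of all 32851 promoters in the table. The E-box CACGTG occurred in 6.02% of promoters, the D-box TTANGTAA in 2.06% and the nuclear receptor half-site AGGTCA in 14.0%. The HNF4 site CAAAGTCCA occurred in 0.384% and TATAAA in 12.4%. TCAAGGTCA, which contains AGGTCA, occurred in 0.387%. The FXR inverted repeat, which overlaps the half-site, was in 2 promoters and in none of these. The Cyp8b1 promoter held CAAAGTCCA at positions -67 to -59 and TATAAA at -31 to -26, counted back from the start of transcription. The Abcb11 promoter held AGGTCA on the opposite strand at -56 to -51. The stretch that ends there, aggccatTGACCT, differs from the FXR repeat only by c in place of t in AGGTCA. The Slc10a1 promoter held TATAAA on the opposite strand at -128 to -123, and the Cyp27a1 window held none of these motifs. A second Slc10a1 entry (chr12:80968080-80968329), not printed, held AGGTCA at -87 to -82, and that of Abcb4 held none. None of the matched windows held the E-box or the D-box. These matches are descriptions of sequence only.

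The classic route is described first. Cyp7a1 (NM_007824, mm9 chromosome 4, 6192759 to 6202778, minus strand, 6 exons) encodes the rate-limiting enzyme. In time order, from CT22 through CT28 and CT34 to CT40, its normalised reads were 7053, 3424, 966 and 4136. It was highest at CT22, lower at each of the next times and up again at CT40. The widest difference was 7.30-fold (6.82 to 7.83) between CT22 and CT34, the highest ratio among the members and the third highest of the 8854 genes whose mean reached 100 reads. Without CT34 the range was 2.06-fold, between CT22 and CT28. Without CT22, the library that stood apart, the range was 4.28-fold, between CT40 and CT34.

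Cyp8b1 (NM_010012, mm9 chromosome 9, 121823475 to 121825423, minus strand, 1 exon) had a different course, with 5184, 3395, 5960 and 10690 normalised reads from CT22 to CT40. It was lowest at CT28, a time when Cyp7a1 was at an intermediate level, and highest at CT40. CT40 was 3.15-fold above CT28 (3.03 to 3.27), the 15th highest such ratio among the 8854 genes. CT22 and CT34 were close, at 0.870 for CT22 over CT34 (0.837 to 0.904). Without CT40 the range of Cyp8b1 was 1.76-fold, so the 2-fold range rests on that library, and without CT28 it was 2.07-fold.

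The relative levels of the enzymes differed between the libraries. Per kb of transcript, the level of Cyp8b1 was 1.57, 2.12, 13.2 and 5.53 times that of Cyp7a1 in time order. Between CT22 and CT34 the normalised reads per kb went from 2660 to 3058 in Cyp8b1 and from 1691 to 231 in Cyp7a1. These ratios within a library do not depend on the scaling between libraries. They do depend on coverage along the transcript. Exon 6 of Cyp7a1, 2897 of its 4172 bases, was thinly covered, and more so at later times. The log2 ratio of 5' to 3' coverage of Cyp7a1 was 1.80 at CT22 and 2.86 at CT34. The part of this in the ratios per kb was not tested.

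**Figure D1:**
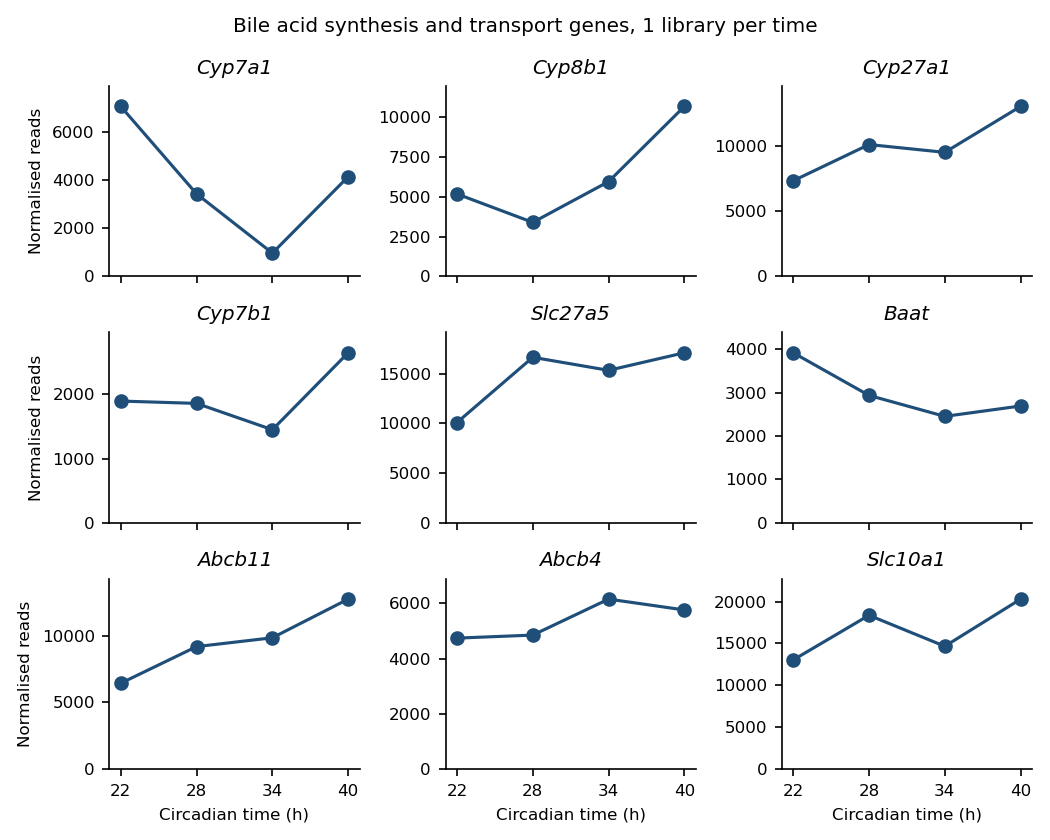
Normalised reads (y axis, from 0) of the 9 genes against circadian time in h (x axis), 1 point per library of 3 pooled animals, with no error bars because each time is 1 library. Cyp7a1 runs from 7053 at CT22 to 966 at CT34, and Cyp8b1 from 3395 at CT28 to 10690 at CT40.

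The alternative route varied less. Cyp27a1 (NM_024264, mm9 chromosome 1, 74760148 to 74784464), a mitochondrial sterol hydroxylase, had 7335, 10116, 9519 and 13046 normalised reads in time order. Its range was 1.78-fold (1.73 to 1.83). It was lowest at CT22 and highest at CT40, with the intermediate times close together. Cyp7b1 (NM_007825, mm9 chromosome 3, 17971950 to 18143338), the oxysterol hydroxylase that follows it, had 1897, 1860, 1450 and 2650, a range of 1.83-fold (1.71 to 1.95). CT22 and CT28 could not be told apart for Cyp7b1 by counting error, with CT28 over CT22 at 0.981 (0.919 to 1.05). Per kb, Cyp27a1 stood at 2.30 times Cyp7a1 at CT22 and at 21.8 times at CT34, with the same limit from the uneven coverage of Cyp7a1.

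The conjugating enzymes went different ways. Slc27a5 (NM_009512, mm9 chromosome 7, 13573696 to 13583541), the bile acid CoA ligase, had 10071, 16630, 15321 and 17087 normalised reads in time order. Its range was 1.70-fold (1.66 to 1.74). It was low at CT22, and CT28 and CT40 lay close together, at 0.973 for CT28 over CT40 (0.953 to 0.994). Without CT22 its range was 1.115-fold. Baat (NM_007519, mm9 chromosome 4, 49502291 to 49519430), which transfers the amino acid, had 3917, 2935, 2451 and 2691. Baat was highest at CT22 and lowest at CT34, the same extremes as Cyp7a1, over a range of 1.60-fold (1.52 to 1.68).

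Among the transporters, Abcb11 (NM_021022, mm9 chromosome 2, 69076339 to 69180673), the bile salt export pump, had 6432, 9178, 9841 and 12737 normalised reads from CT22 to CT40. It was higher at each later time, and its range of 1.98-fold (1.92 to 2.04) lay just under the 2-fold limit, which it passed in the deposited values (log2 range 1.18), by hepatocyte markers (1.10), by junction reads (1.10) and in the 5' part of the transcript (1.16), while in the 3' part it was 0.79. Abcb4 (NM_008830, mm9 chromosome 5, 8893721 to 8959226), the phospholipid floppase, had 4744, 4854, 6157 and 5764, a range of 1.30-fold (1.25 to 1.35), the narrowest of the 9. Slc10a1 (NM_011387, mm9 chromosome 12, 82056479 to 82069066), the uptake transporter, had 13033, 18369, 14669 and 20300, with CT22 and CT34 low and CT28 and CT40 high. Its range was 1.56-fold (1.52 to 1.59). Per kb it was the most abundant member in every library, between 8654 at CT22 and 13479 at CT40, and Abcb11 per kb ran from 1.13 times Abcb4 at CT22 to 1.84 times at CT40.

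A range of at least 2-fold was reached by 2 of the 9 members, Cyp7a1 and Cyp8b1, beside 12.6% of the 8854 genes. The median log2 range was 0.83 for the members and 0.53 for all these genes. Of the 9 members 6 were highest at CT40 (29% of all genes), 2 at CT22 (33.7%) and 1 at CT34 (20.4%), and 5 were lowest at CT22 (40.2%), 3 at CT34 (19.6%) and 1 at CT28 (14.7%). By total reads or by hepatocyte markers 4 were lowest at CT22. CT40 was the highest library for 6 members by each of the other scalings but that by hepatocyte markers, where it was highest for 7. Nearly all reads were unique to the members: counting multi-mapped reads added at most 1.39%, for Abcb4. Of the members Abcb11 alone shares exon bases with another annotated gene, over 2.78% of its length.

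The pairs of libraries 12 h apart gave different pictures. For CT22 against CT34, 3 of the 9 were higher at CT22 (Cyp7a1, Baat and Cyp7b1), where 47% of all genes were. Cyp7a1 alone passed 2-fold in that direction, as 3.06% of genes did, and no member passed it in the other, as 3.77% did. The median log2 CT22 over CT34 was -0.20 for the members and -0.04 for all genes. For Cyp7b1 the ratio was 1.31 (1.22 to 1.40), and after removal of the GC and length trend (added after seeing the data) its log2 ratio turned from 0.39 to -0.03. For CT28 against CT40, 8 of 9 were lower at CT28, where 50.8% of all genes were, with Baat the exception at 1.09 (1.04 to 1.15). Baat turned to the other side when libraries were scaled by hepatocyte markers, at a log2 ratio of -0.10, and by junction reads, at -0.04. Cyp8b1 alone was at least 2-fold lower at CT28, as 1.03% of genes were, and no member was 2-fold higher, as 1.2% were. Slc27a5 differed little, and by junction reads its log2 ratio turned from -0.04 to 0.18. The median log2 CT28 over CT40 was -0.27 for the members and -0.01 for all genes.

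**Figure D2:**
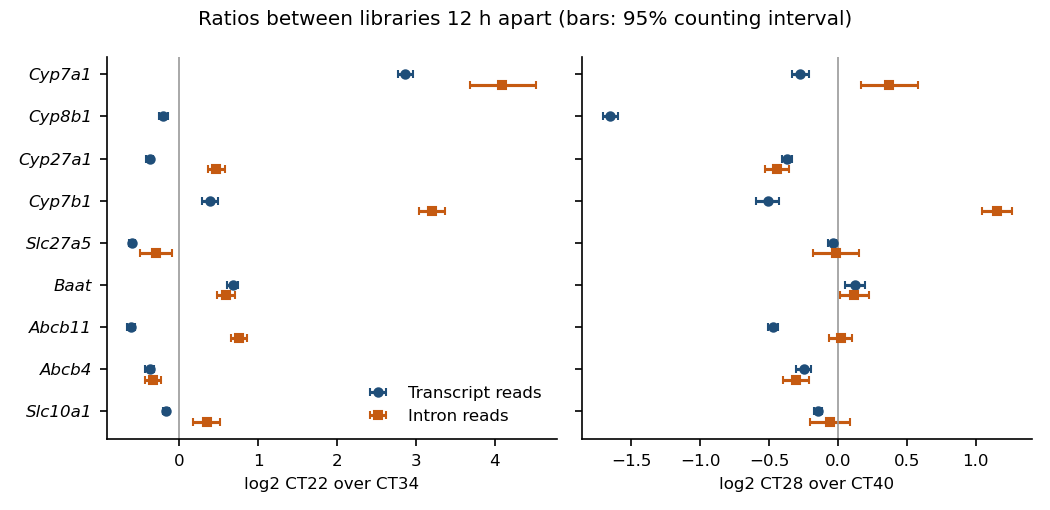
log2 ratios (x axis) of CT22 over CT34 and of CT28 over CT40 for each gene, from transcript reads (circles) and from intron reads (squares), with exact 95% counting intervals as bars; Cyp8b1 has no intron. Cyp7a1 stands at 2.87 and its introns at 4.10 for CT22 over CT34, and Cyp7b1 introns lie far from its transcript reads in both panels.

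Introns report RNA that has not yet been spliced, so they were set beside the transcripts. The introns of Cyp7a1 had the same highest and lowest times as its transcript. Intron reads came to 906, 429, 52.9 and 331 normalised reads from CT22 to CT40, with CT22 over CT34 at 17.1-fold (12.9 to 23.1). Between CT28 and CT40 they went the other way from the transcript, at 1.30 (1.123 to 1.498) for CT28 over CT40 against 0.828 (0.792 to 0.866). Introns of all genes also leaned to CT28, with a median log2 ratio of 0.24. The transcript ratio depended on the part read, from 0.488 in exon 1 to 1.03 (0.965 to 1.10) in exon 6. The CT22 over CT34 intron ratio ranked sixth among the 7050 genes whose introns averaged 50 reads or more. Introns of most genes were higher at CT22 (median log2 CT22 over CT34 of 0.54, at least 2-fold in 21.6% of genes), in the library with the most intron reads. Within Cyp7a1 the ratio was between 12.4-fold and 35.6-fold in the 5 introns, between 4.58-fold and 5.33-fold in exons 1 to 5, and 10.6-fold (9.56 to 11.8) in exon 6, the long last exon. Reads over the 5 splice junctions gave 4.97-fold (4.45 to 5.56). Exon 6 also held relatively fewer reads at each later time: the log2 ratio of 5' to 3' coverage of Cyp7a1 was 1.80, 2.45, 2.86 and 3.02 in time order, and the median over genes moved the same way. Its part in the size of the Cyp7a1 ratio was not tested. The direction was the same in each exon and intron.

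Cyp7b1 showed the largest separation of introns from exons among the members. Its introns, 169223 bases in all, held 3197, 2198, 346 and 988 normalised reads from CT22 to CT40, a CT22 over CT34 ratio of 9.24-fold (8.26 to 10.4), which ranked 22nd of 7050. Its transcript was only 1.31-fold higher at CT22, and its exons 1 to 6 gave ratios between 1.003 and 1.49. Each of its 5 introns was higher at CT22, although intron 3 held too few reads for its interval to lie above 1. Intron 1, which is 139250 bases long, gave 10.4-fold (9.15 to 12.0), and intron 4 gave 6.11-fold (4.79 to 7.88). No exon of another annotated gene lies within these introns. Intron reads of Cyp7b1 per 100 transcript reads were 169, 118, 23.9 and 37.3 in time order. The transcript was highest at CT40 and the introns at CT22, and for CT28 over CT40 they lay on opposite sides, at 0.702 (0.662 to 0.745) in the transcript and 2.22 (2.07 to 2.40) in the introns.

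**Figure D3:**
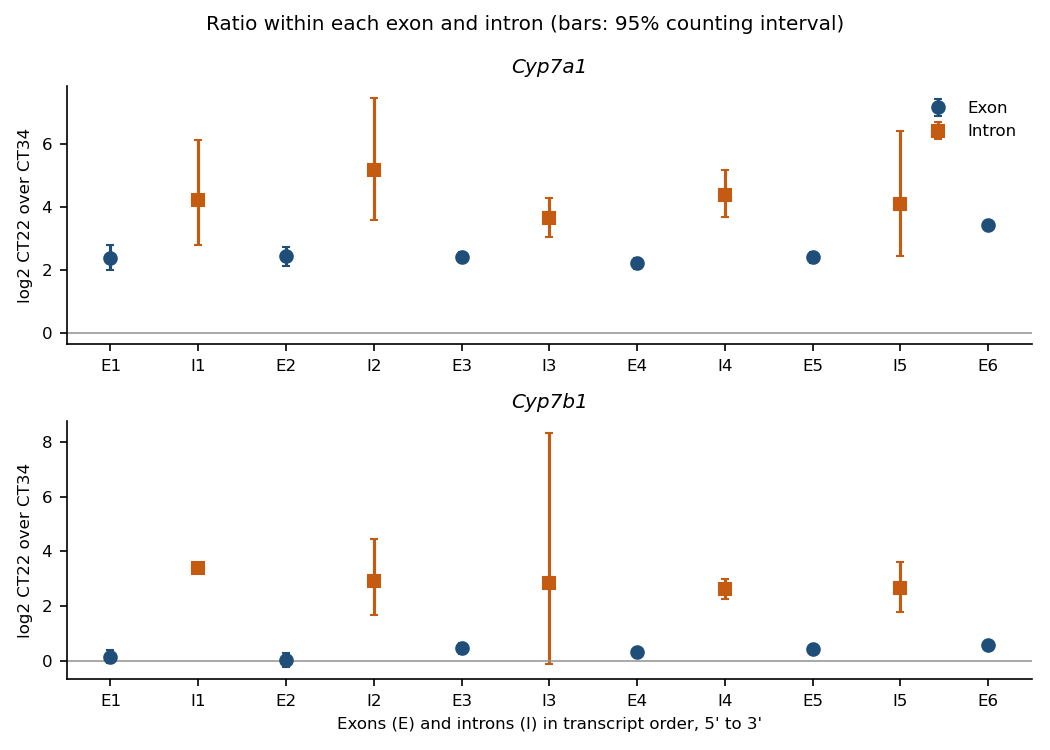
log2 CT22 over CT34 (y axis) within each exon (E, circles) and intron (I, squares) of Cyp7a1 and Cyp7b1 in transcript order (x axis), with exact 95% counting intervals as bars. In Cyp7a1 every intron lies above every exon's value, and in Cyp7b1 the exons lie near 0 while introns 1 and 4 lie at 10.4-fold and 6.11-fold.

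Abcb11 introns and transcript lay on opposite sides for CT22 over CT34, at 1.69 (1.58 to 1.81) and 0.654 (0.633 to 0.675). Its introns held 2369, 2366, 1400 and 2333 normalised reads in time order and were low at CT34, a time when its transcript was above CT22 and CT28. For Cyp27a1 they were 1834, 1782, 1324 and 2420, low at CT34 and high at CT40. Slc10a1 introns held 651, 754, 511 and 786, Slc27a5 introns 369, 561, 453 and 567, Abcb4 introns 1397, 1583, 1762 and 1955, and Baat introns 1588, 1408, 1050 and 1295. Introns of 6 of these 8 members were higher at CT22 than at CT34, where 81.9% of genes were, with a median log2 ratio of 0.53 for the members beside 0.54 for all. Introns and transcript peaked at the same time for Cyp7a1, Cyp27a1, Slc27a5, Baat and Slc10a1, and at different times for Cyp7b1, Abcb11 and Abcb4. Over all genes the peak times were equal in 42.6%. Counting error leaves the intron peak times of Slc27a5, Slc10a1 and Abcb11 unsettled. Their intron ratios of CT28 over CT40 were 0.990 (0.881 to 1.11), 0.960 (0.869 to 1.06) and 1.01 (0.958 to 1.07). In Abcb11 the introns at CT22 lay as close, at 2369 beside 2366 at CT28.

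**Figure D4:**
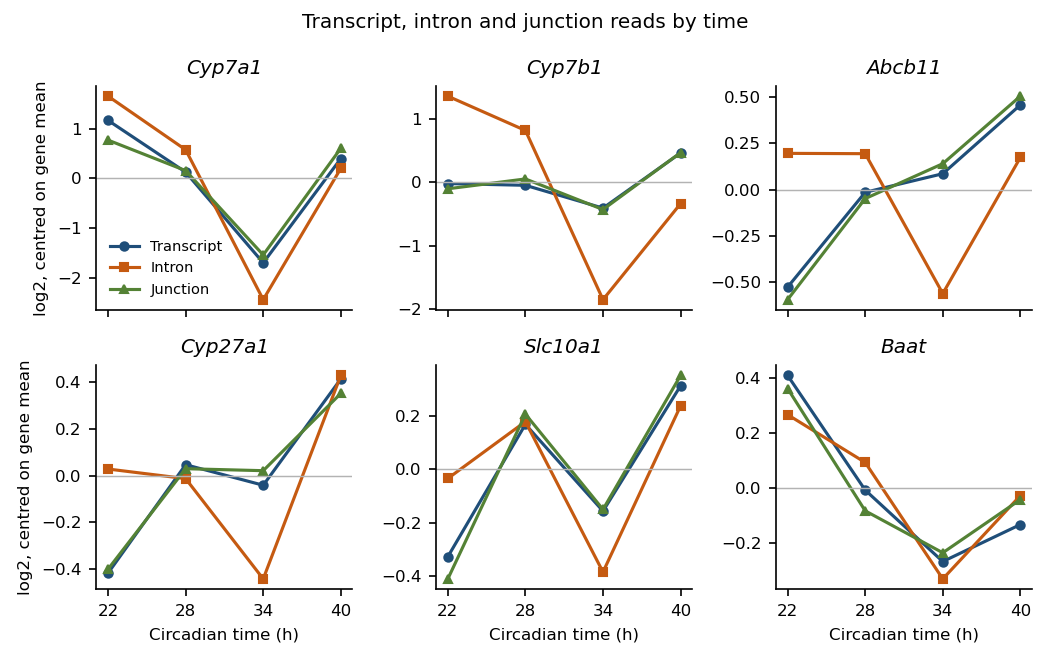
log2 of normalised transcript reads (circles), intron reads (squares) and junction reads (triangles), each centred on its own mean over the 4 libraries (y axis), against circadian time in h (x axis), for 6 members. Junction reads have the same highest and lowest times as the transcript in each panel. Between CT28 and CT40, those of Baat run from 459 to 472 and its transcript from 2935 to 2691. The introns of Cyp7b1 run from 3197 at CT22 to 346 at CT34.

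The members were also compared with one another by the root-mean-square difference of centred log2 values over the 4 libraries. The closest pairs were Cyp27a1 with Abcb11 (0.09), Cyp27a1 with Slc10a1 (0.11) and Cyp27a1 with Slc27a5 (0.14). The members nearest to Cyp7a1 were Baat at 0.86, which ranked 589th among 8853 genes by this distance, and Cyp7b1 at 0.88, which ranked 883rd. The other members ranked between 4448th and 7421st. Among the 8854 genes the 5 nearest to Cyp7a1 were Upp2, a uridine phosphorylase (0.13), Serpina4-ps1, a serpin pseudogene (0.43), 9130409I23Rik (0.44), Zyg11a (0.44) and Ddx3y, a Y-linked helicase (0.45). Upp2 had 12324, 4836, 1707 and 6487 normalised reads in time order. Ddx3y had 323, 202, 104 and 244. Other Y-linked genes ran from 179, 187, 137 and 194 in Kdm5d to 116, 67.1, 47.8 and 68.6 in Uty, and were likewise lowest at CT34. Xist had 9037, 8116, 6197 and 6985 and was lowest at CT34 too. These sex-linked genes other than Ddx3y were chosen after their values were seen. Their part in the level of Cyp7a1 was not tested.

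Genes that sense bile acids came next. Nr0b2, which encodes SHP, a repressor of Cyp7a1 and Cyp8b1, had 292, 1078, 1115 and 668 normalised reads from CT22 to CT40. It was lowest at CT22, where Cyp7a1 was highest, with CT34 over CT22 at 3.83-fold (3.35 to 4.38). Its reads at CT28 and CT34 were nearly equal, at 1092 and 1096, while normalised reads of Cyp7a1 were 3424 and 966. The single intron of Nr0b2 held 21, 181, 166 and 51 reads in time order, with the same low point. At CT28 and CT34 the intron lay close, at 179 and 169 normalised reads, so its highest time is unsettled. Nr1h4, which encodes FXR, had 3666, 2547, 2124 and 1999, highest at CT22, and its introns were 2.75-fold (2.57 to 2.94) higher at CT22 than at CT34. Of the FGF15 receptor pair, Klb had 319, 432, 535 and 680, a range of 2.13-fold (1.86 to 2.45), and Fgfr4 had 1301, 1666, 1568 and 1739. Both were lowest at CT22. Hnf4a, which encodes an activator of several members, was nearly level in transcript reads, at 16623, 17730, 16563 and 15708. By other reads it was less level. Its junction reads gave 0.697 (0.671 to 0.724) for CT22 over CT34, and its introns were 1.67-fold (1.56 to 1.77) higher at CT28 than at CT40. Nr5a2, which encodes LRH-1, had 680, 927, 970 and 1145. Of the 16 regulators with enough reads, 4 had a 2-fold range (12.6% of all genes), among them Nr0b2, Klb and the liver transcription factor Foxa2 (2.00-fold, lowest at CT34).

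Of 11 listed clock-controlled factors known to act on Cyp7a1 or its promoter sites, 9 had enough reads, and Dbp and Bhlhe41 did not. Among these 9 factors 5 had a 2-fold range, beside 12.6% of all genes, and those with the widest ranges are given. Nr1d1, which encodes REV-ERBα, had 446, 409, 426 and 1894 normalised reads and was high at CT40 alone. Nr1d2, its paralogue, had 354, 201.4, 102 and 412, lowest at CT34 as Cyp7a1 was. Nfil3, a repressor at D-boxes, had 459, 825, 1034 and 651, with its low and high points opposite to those of Cyp7a1. Bhlhe40, a repressor at E-boxes, had 1708, 2870, 1915 and 1051.

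**Figure D5:**
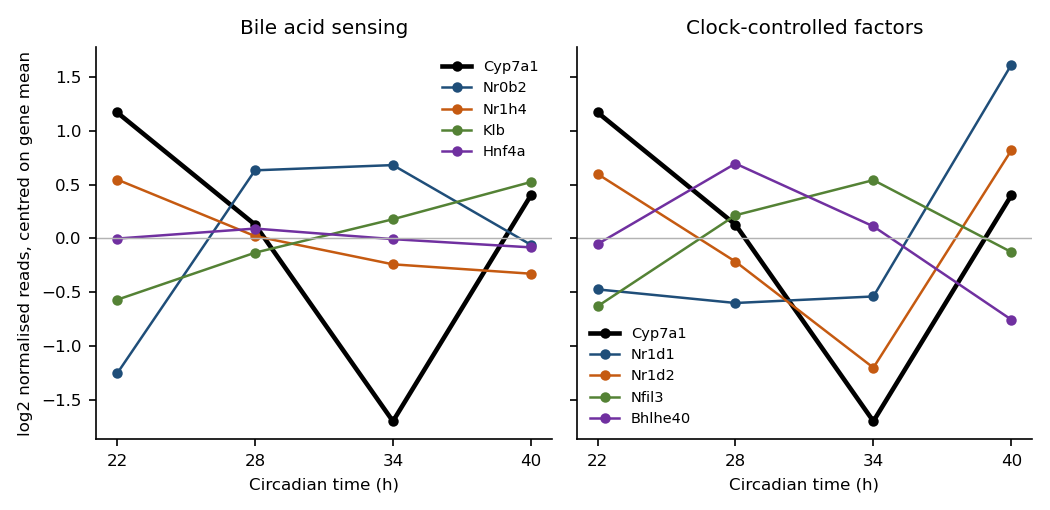
log2 of normalised reads centred on each gene's mean over the 4 libraries (y axis) against circadian time in h (x axis), for Cyp7a1 (thick line) with genes of bile acid sensing (left) and clock-controlled factors (right), 1 library per time. Nr0b2 is lowest at CT22 at 292, where Cyp7a1 is highest, and Nr1d1 is high at CT40 alone at 1894.

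The rest of the pathway was read from lists. Among 12 further synthesis enzymes with enough reads 2 had a 2-fold range, a share near the 12.6% of all genes. Cyp39a1, an oxysterol hydroxylase, had 351, 757, 961 and 534 normalised reads and was 2.74-fold (2.41 to 3.11) higher at CT34 than at CT22, while Akr1d1, the steroid 5-beta-reductase that follows Cyp7a1, had 4928, 4292, 2316 and 3315 and was lowest at CT34. Their median log2 CT28 over CT40 was -0.12, and 7 of 12 were lower at CT28, near the 50.8% of all genes. Among 10 further transporters 5 had a 2-fold range (12.6% of all genes), and 9 of 10 were lower at CT28 than at CT40 (50.8% of all genes). Slco1a1, an organic anion uptake transporter, had 2876, 834, 1025 and 2898. Abcc3, an exporter to the blood, had 3840, 7189, 7790 and 10169, Slco1a4 had 2594, 1937, 1051 and 1551, and Abcg8, a subunit of the biliary sterol pump, had 1947, 2171, 2826 and 4717. Among 12 genes of cholesterol supply 11 were highest at CT40, beside 29% of all genes, and 3 had a 2-fold range (12.6% of all genes), among them Npc1 (2.35-fold) and Srebf2 (2.31-fold), both lowest at CT22. Markers of both zones of the lobule were followed because Cyp7a1 is known as a pericentral gene. The summed level of 8 pericentral markers was 236870, 250611, 195877 and 220618 in time order, and that of 7 periportal markers 159494, 189881, 198041 and 216390. Cyp2e1 made up most of the pericentral sum, with 168983, 172078, 128408 and 140839. Of the 8 pericentral markers 4 were highest at CT34 and 5 were lower at CT22 than at CT34 (median log2 ratio -0.15), and 5 of the 7 periportal markers were lower at CT22 (median -0.52). Their part in the members' levels was not tested.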

How the data were processed

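Liver polyA RNA of 4 pools of 3 animals, 1 library per time, was analysed. The authors deposited, per library, 2 values (lower and upper) of each transcript, exon and intron, in another unit that the files do not name. The deposited junction lists hold counts of reads per splice junction, found with RUM per the file headers. Coordinates are mm9, a build named in the submitters' processing notes. The aligner's version and how reads were assigned to features are not stated in those sources. The labels' protocols name no step that marks strand.

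The feature values behaved as RPKM: multiplied by length, they gave whole reads (to 0.05 read after allowing for rounding) for 99.9965 to 100% of lower transcript values and 99.40 to 99.55% of lower intron values, among features of up to 2000 reads and with under 0.2 read of rounding. Lower values were read as uniquely mapped reads, an inference from the values. A read that spans exons counts in each exon. Reads were scaled by TMM (edgeR 4.0.16, R 4.3.3), and 8854 of 21061 genes, those averaging 100 reads or more, were kept. Counts under 3 were set to 3 for counts, medians and ranks over all genes. Ratios printed with an interval used the reads without this floor. No test was run, since each time is 1 library; intervals are exact conditional 95% intervals. The steps were tested on simulated data. Named genes were the members, up to 4 genes with the widest 2-fold range of each list, 6 fixed regulators and the 5 genes nearest to Cyp7a1; some genes of the lists are not reported here. The members, the lists and the comparisons were chosen with earlier results of these data known. Of 10 hepatocyte and 6 Kupffer markers listed, 9 and 5 were found by symbol. GC content was known for 99.6% of genes. Alternatives covered scaling, DESeq2 1.42.0 size factors, the upper value, filters, parts of the transcript, junction reads and left-out libraries. Python 3.11.15, numpy 2.4.6, scipy 1.17.1, pandas 2.3.3 and matplotlib 3.10.9 were used.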

Additional observations from a re-analysis of the deposited data

How the results depend on the processing

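No paired analysis was possible because each time has 1 library. The log2 CT22 over CT34 of Cyp7a1 kept its sign in the 11 alternatives that gave it. From 2.87 it moved to 2.66 in the deposited values with no further scaling, 3.03 by hepatocyte markers and 3.30 in the 3' part of the transcript. In alternatives added after seeing the data it was 2.46 without the GC and length trend, 2.59 in the 5' part and 2.31 by junction reads. Its intron ratio, 4.10, was between 3.89 and 4.26 in 7 alternatives. These changed only the scaling, the upper value or the libraries kept, so they could move it little. None of them bears on the lean of introns of all genes to CT22 (median log2 0.54). The intron ratio was not computed without the GC and length trend.

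The members' median log2 CT22 over CT34, -0.20, was -0.13 by total reads, -0.41 in the deposited values, -0.044 by hepatocyte markers, -0.32 in the 3' part, -0.052 in the 5' part and -0.34 by junction reads. Their median CT28 over CT40, -0.27, was -0.39 in the deposited values, -0.50 by hepatocyte markers and -0.36 without the GC and length trend.

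The number of members with a 2-fold range, 2, became 4 in the deposited values (with Abcb11 and Cyp27a1), 4 by hepatocyte markers (with Abcb11 and Cyp7b1), 1 in the 3' part and 1 without CT40, and 8 passed a 1.5-fold range. Over all genes the number, 1113, was 287 without CT22, 685 without CT40, 2009 from a mean of 20 reads, 3558 with no filter, 3842 at 1.5-fold and 696 without the GC and length trend. Cyp8b1, with 1 exon, has no value by transcript part or junction.

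Signs turned for CT22 over CT34 in Cyp7b1 (log2 -0.032 without the GC and length trend) and Slc10a1 (0.035 in the 5' part). For CT28 over CT40 they turned in Baat (-0.10 by hepatocyte markers, -0.041 by junction reads) and Slc27a5 (0.13 in the 5' part, 0.18 by junction reads). The median log2 ratio of all genes, -0.04 (CT22 over CT34) and -0.01 (CT28 over CT40) by TMM, was -0.24 and -0.12 in the deposited values and 0.12 and -0.23 by hepatocyte markers. Genes 2-fold over and under for CT22 against CT34 numbered 271 and 334 by TMM, 340 and 260 by total reads, 147 and 673 in the deposited values and 456 and 186 by hepatocyte markers; for CT28 against CT40 they numbered 106 and 91 by TMM, 83 and 153 in the deposited values and 66 and 227 by hepatocyte markers. Library, time and pool cannot be told apart. Low read numbers limit single introns, such as intron 1 of Cyp7a1 with 4 reads at CT34.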
